A study of Mus musculus with 10 samples.

Results

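The genes described here encode 10 proteins of the Polycomb system, the subunits of Polycomb repressive complex 2 (*Ezh1*, *Ezh2*, *Eed*, *Suz12*, *Jarid2*, *Mtf2*, *Phf19* and *Aebp2*) and the RING proteins of Polycomb repressive complex 1 (*Ring1* and *Rnf2*). They were taken by gene name, and all 10 were found among the 27998 genes of the E14Tg2a table and the 32285 genes of the R1 table. Droplet-based single-cell RNA-seq (scRNA-seq) was used to follow mouse embryonic stem cells (ESC) of the line E14Tg2a as they passed through epiblast-like cells (EpiLC) to embryoid bodies (EB) that contain primordial germ cell-like cells (PGCLC), with 1 library per condition. The 8 E14Tg2a libraries were 2i ESC (grown with 2 kinase inhibitors and LIF), d1, d2 and d3 EpiLC (Activin A, bFGF and serum replacement), EpiSC (epiblast stem cells passaged in Activin A and bFGF), d2 and d4 EB (aggregates of EpiLC in medium with BMP4, SCF, LIF and EGF) and S+L ESC (serum and LIF). A further pair of libraries held d4 EB of the ESC line R1, either wild type (WT) or *Mll3/4* dCD, a clonal R1 derivative in which the histone methyltransferases MLL3 and MLL4 carry mutations that remove their catalytic activity. These sequence changes cannot be read from 3′ tags, and *Kmt2c* and *Kmt2d*, which encode MLL3 and MLL4, were counted at 47.5 and 29.4 UMIs per 1000000 in WT and at 53.8 and 29.1 in dCD.

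Polycomb repressive complex 2 (PRC2) places methyl groups on lysine 27 of histone H3 at the promoters of developmental genes, and Polycomb repressive complex 1 (PRC1) attaches ubiquitin to histone H2A at many of the same promoters. EZH2 or its paralogue EZH1 is the methyltransferase of PRC2, EED and SUZ12 are its core partners, and the accessory subunits define alternative forms, with MTF2 or PHF19 in one and JARID2 and AEBP2 in the other. RING1 and RNF2 (RING1B) are the alternative ubiquitin ligases of PRC1, and in ESC both complexes hold lineage genes silent before differentiation.

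The promoters of *Ezh2*, *Suz12*, *Phf19* and *Mtf2* are printed because *Ezh2* was higher in cells with more cell cycle UMIs in every library, *Suz12* and *Phf19* share with *Ezh2* a motif of the E2F type, and *Mtf2* was past the fold in both listed PGCLC and dCD cells. Sequences are from RefSeq on GRCm38.p6, the build of the counts, and are written 5′ to 3′ on the strand of the gene, with capitals for TTTGGCGC or TTTCCCGC (E2F type) and for CCAAT, each read on either strand. All but the second *Ezh2* stretch lie outside annotated exons of their own gene. Both *Ezh2* stretches lie within the annotated span of that gene, whose 5′ end is at base 47595341, and the other stretches lie before their genes. Exons of other genes were not checked, and the *Phf19* stretch lies within *Gm13448*, on the opposite strand.
*Ezh2*, chr6:47595059-47595183, minus strand: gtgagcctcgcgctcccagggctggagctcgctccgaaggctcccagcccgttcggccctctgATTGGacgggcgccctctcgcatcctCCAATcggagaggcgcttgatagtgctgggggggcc
*Ezh2*, chr6:47595009-47595038, minus strand, across the start site: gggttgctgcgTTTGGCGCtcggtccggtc
*Suz12*, chr11:79992856-79993105, plus strand: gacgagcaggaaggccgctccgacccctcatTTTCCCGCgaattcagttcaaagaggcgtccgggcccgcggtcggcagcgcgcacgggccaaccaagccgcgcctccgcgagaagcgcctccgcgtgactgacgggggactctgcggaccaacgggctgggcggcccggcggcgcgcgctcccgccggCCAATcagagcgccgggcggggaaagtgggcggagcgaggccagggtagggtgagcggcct
*Phf19*, chr2:34914027-34914226, minus strand: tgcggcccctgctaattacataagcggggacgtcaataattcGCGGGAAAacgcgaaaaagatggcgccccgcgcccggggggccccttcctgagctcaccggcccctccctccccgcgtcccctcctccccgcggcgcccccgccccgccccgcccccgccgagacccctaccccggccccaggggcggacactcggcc
*Mtf2*, chr5:108065424-108065673, plus strand: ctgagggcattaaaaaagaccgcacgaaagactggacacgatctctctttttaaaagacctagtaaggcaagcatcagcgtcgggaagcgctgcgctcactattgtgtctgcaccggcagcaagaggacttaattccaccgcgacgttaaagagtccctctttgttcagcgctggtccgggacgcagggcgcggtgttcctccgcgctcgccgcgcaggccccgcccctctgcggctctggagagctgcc

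In the 14 promoters listed for the 10 genes, each from 250 bases before to 50 bases after a start site, an E2F-type motif was found for 3 genes, namely *Ezh2*, *Suz12* and *Phf19*, and 1.56% of 32851 promoters of the same length held one. CCAAT was found for 6 genes (*Ezh2*, *Eed*, *Suz12*, *Jarid2*, *Mtf2* and *Aebp2*), against 37.4% of all promoters, and for *Mtf2* only in a second promoter that is not printed. A motif of NRF1 (GCGCA, then any base, then GCGC) was found for *Ezh1* and *Ezh2* and in 4.60% of all promoters. The octamer ATGCAAAT, in 1.74% of promoters, and the ETS motif CCGGAAGT, in 3.89%, were found for none of the 10 genes. The counts are of genes and the shares are of promoters, so the 2 are in unlike units. *Jarid2* and *Mtf2* had 2 promoters each and *Aebp2* had 3. These matches describe letters in the window and were not related to binding of any factor.

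On GRCm38 the genes lie on separate chromosomes except for *Ezh1* (ENSMUSG00000006920, chr11:101191115-101226463) with *Suz12* (ENSMUSG00000017548, chr11:79993106-80034123) and *Ezh2* (ENSMUSG00000029687, chr6:47530139-47595341) with *Aebp2* (ENSMUSG00000030232, chr6:140622663-140678472). *Eed* (ENSMUSG00000030619) spans chr7:89954654-89980983, *Jarid2* (ENSMUSG00000038518) chr13:44729474-44921643, *Phf19* (ENSMUSG00000026873) chr2:34893757-34914026 and *Ring1* (ENSMUSG00000024325) chr17:34020792-34024680. *Mtf2* (ENSMUSG00000029267, chr5:108065674-108109004) shares 2639 bases at its 3′ end with *Tmed5* on the opposite strand, and *Rnf2* (ENSMUSG00000026484, chr1:151458004-151500955) shares 158 bases with *Trmt1l*. Whether counting used the strand is not given in the sources used here. The values of *Tmed5* and *Trmt1l* are given because they would bear on those of *Mtf2* and *Rnf2* only if it did not. Over the stages *Tmed5* ranged from 10.5 CPM in S+L ESC to 33.5 in d4 EB, with a ratio of 1.57 from 2i ESC to d1 EpiLC (*Mtf2* 1.19) and 1.51 from 2i ESC to d2 EpiLC (*Mtf2* 0.596). *Trmt1l* ranged from 10.5 CPM in d1 EpiLC to 20.4 in d4 EB, with a ratio of 1.37 from d2 to d4 EB (*Rnf2* 1.19) and 1.70 from d2 EpiLC to EpiSC (*Rnf2* 1.23).

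Libraries held between 227 cells (2i ESC) and 1699 cells (dCD d4 EB), the median number of UMIs (unique molecular identifiers, 1 per captured transcript) per cell ranged from 11751 in dCD to 36750 in d1 EpiLC, and total UMIs ranged from 8757170 to 22887974. Levels are given as CPM, the UMIs of a gene summed over a group's cells and scaled to 1000000 UMIs in all, followed in brackets by the exact Poisson interval at 95%, and ratios of CPM have exact conditional 95% intervals. Both cover counting error only. With 1 library per condition no test between conditions was possible, and stage, cell line and library cannot be told apart. The study prepared the E14Tg2a and R1 libraries with different versions of the single-cell kit. A difference in level between the lines therefore cannot be told apart from one of the kit. A gene was called when its CPM differed past 1.5-fold and it had at least 10 UMIs over both groups, and the share of all such genes past the same fold is given as the background. All 10 genes reached this minimum in each of the 12 comparisons made. The background was not matched for level, and genes with few UMIs can pass the fold by counting error alone. In summed UMIs, a change in the cells present and a change of the level per cell cannot be told apart. Of the barcode sequences, 8 occurred in more than 1 E14Tg2a library and 0 in both R1 libraries.

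The methyltransferase genes differed in how they ran over the stages. *Ezh2* was counted at 125 CPM [118-133] in 2i ESC, 148.5, 134.5 and 106 in d1, d2 and d3 EpiLC, 143 in EpiSC, 106 and 98.6 in d2 and d4 EB and 179.5 [171-188] in S+L ESC. It was highest in S+L ESC and lowest in d4 EB, and the libraries in between formed a middle range in which most neighbours in rank could not be separated. *Ezh1*, at a far lower count, stood at 4.45 CPM [3.17-6.09] in 2i ESC, 4.91, 6.81 and 8.31 in d1, d2 and d3 EpiLC, 3.68 [2.71-4.90] in EpiSC, 9.83 [8.29-11.6] and 8.85 in d2 and d4 EB and 8.61 in S+L ESC. EpiSC was the lowest library for *Ezh1* while *Ezh2* there was among the higher ones. The ratio of *Ezh2* to *Ezh1* UMIs was accordingly 38.9 [29.1-53.1] in EpiSC, 28.1 in 2i ESC and 30.2 in d1 EpiLC, and fell to 12.7 in d3 EpiLC, 10.8 [9.08-12.9] in d2 EB and 11.1 [8.92-14.1] in d4 EB. Since capture can differ between transcripts, this ratio is read only between libraries.

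The core partner *Eed* had the steepest decline of the well counted genes. It stood at 172 CPM [163-180.5] in 2i ESC and at 114, 74.0 and 45.3 [41.9-49.0] in d1, d2 and d3 EpiLC, and at 56.7 in EpiSC, 53.8 and 54.0 in d2 and d4 EB and 138 in S+L ESC. Both ESC libraries were high and d1 EpiLC was intermediate, with no overlap of intervals between them and the later stages. *Suz12* had a narrower range, with 68.5 CPM [63.1-74.2] in 2i ESC, 65.3, 54.4 and 49.8 in d1, d2 and d3 EpiLC, 43.1 in EpiSC, 42.6 [39.3-46.1] and 46.3 in d2 and d4 EB and 51.8 in S+L ESC. The ratio of *Eed* to *Suz12* UMIs was 2.50 [2.28-2.76] in 2i ESC and 2.66 [2.40-2.95] in S+L ESC, against 0.910 [0.816-1.01] in d3 EpiLC and 1.17 [1.03-1.33] in d4 EB.

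Among the accessory subunits, *Mtf2* and *Jarid2* shared a peak in d1 EpiLC and a high level in S+L ESC. *Mtf2* was counted at 196 CPM [187-205] in 2i ESC, 232 [223-241], 117 and 91.8 in d1, d2 and d3 EpiLC, 72.3 [67.7-77.2] in EpiSC, 92.4 and 98.0 in d2 and d4 EB and 267 [257-277] in S+L ESC. *Jarid2* stood at 66.5 CPM [61.2-72.1] in 2i ESC, 162 [154-169.5], 83.1 and 78.5 in d1, d2 and d3 EpiLC, 76.6 in EpiSC, 68.1 [64.0-72.5] and 77.1 in d2 and d4 EB and 138 [131-145.5] in S+L ESC. They parted in 2i ESC, which for *Jarid2* was at the low end with d2 EB, whose interval overlapped, and for *Mtf2* came next after S+L ESC and d1 EpiLC. *Aebp2* ranged from 16.7 CPM [14.1-19.6] in 2i ESC to 28.8 [25.7-32.2] in d1 EpiLC and stood between 20.0 and 27.6 in the other libraries. *Phf19* was rare in every library, with 5 UMIs in 2i ESC, 15, 7 and 18 in d1, d2 and d3 EpiLC, 12 in EpiSC, 41 and 44 in d2 and d4 EB and 22 in S+L ESC, so that its level ran from 0.571 CPM [0.185-1.33] in 2i ESC to 4.58 [3.33-6.15] in d4 EB.

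Of the RING genes, *Ring1* ran against the pattern of *Eed* and *Mtf2*. It stood at 9.14 CPM [7.24-11.4] in 2i ESC, 11.4, 15.4 and 11.8 in d1, d2 and d3 EpiLC, 16.4 in EpiSC, 23.6 [21.1-26.2] and 20.5 in d2 and d4 EB and 8.41 [6.72-10.4] in S+L ESC, lowest in both ESC libraries and highest in EB. *Rnf2* had the smallest range of the 10 genes, from 28.0 CPM [25.0-31.3] in d2 EpiLC to 44.6 [40.4-49.0] in d4 EB. The ratio of *Rnf2* to *Ring1* UMIs was 4.15 [3.27-5.33] in S+L ESC and 3.65 [2.84-4.74] in 2i ESC, and 1.60 [1.39-1.83] in d2 EB.

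**Figure D1:**
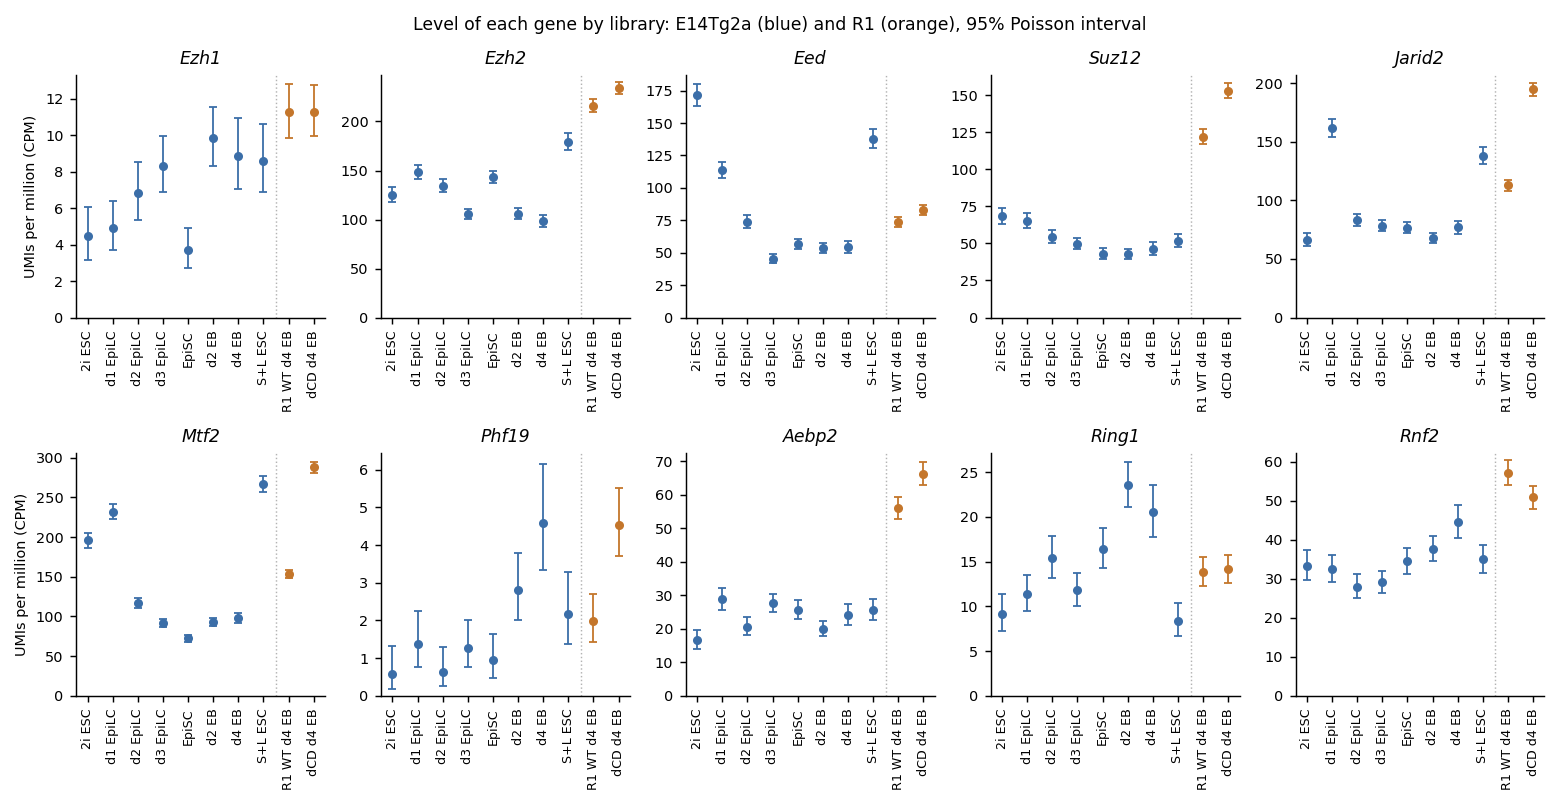
Level of each of the 10 genes in CPM (y axis, starting at 0) in the 8 E14Tg2a libraries (blue) and the 2 R1 libraries (orange), with exact 95% Poisson intervals as bars. Among the E14Tg2a libraries *Eed* descends from 172 CPM in 2i ESC to 45.3 in d3 EpiLC, *Mtf2* is highest in S+L ESC and d1 EpiLC, and *Ring1* is highest in d2 EB. The E14Tg2a and R1 libraries were prepared with different versions of the single-cell kit.

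The highest library exceeded the lowest by 3.79-fold for *Eed*, 3.69-fold for *Mtf2*, 2.80-fold for *Ring1*, 2.67-fold for *Ezh1*, 2.44-fold for *Jarid2*, 1.82-fold for *Ezh2*, 1.73-fold for *Aebp2*, 1.61-fold for *Suz12* and 1.59-fold for *Rnf2*. The median of this ratio over 9035 genes with a mean of at least 5 CPM was 2.55, and 8.92% of them varied less than *Rnf2*, 9.60% less than *Suz12* and 69.5% less than *Eed*. Of the 7 pairs of neighbours in the order of levels, the interval of the ratio included 1 for 7 pairs of *Ezh1* and *Aebp2*, 6 of *Suz12*, *Phf19* and *Rnf2*, 5 of *Ezh2* and *Ring1*, 4 of *Jarid2* and 2 of *Eed* and *Mtf2*. Only for *Eed* and *Mtf2* was the order of most libraries thus beyond counting error. Over the 8 libraries, which share a cell line and a common depth of mapped reads, Pearson's r of log2(CPM + 1) was 0.905 between *Eed* and *Mtf2*, 0.801 between *Eed* and *Suz12* and -0.772 between *Mtf2* and *Ring1*.

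Genes with the most similar course over the 8 libraries were sought for *Ezh2*, *Ezh1* and *Jarid2* among 4712 genes with a mean of at least 20 CPM, by the same r. Those nearest to *Ezh2* included *Pxmp2* (0.908) and *Nsf* (0.907), those nearest to *Ezh1* were *Nbeal1* (0.953), *Sp3os* (0.935) and *Hbp1* (0.921), and those nearest to *Jarid2* were *Tfdp2* (0.934), *Papola* (0.922) and *Tmem245* (0.917). With 8 points and so many genes such values describe likeness in these libraries only.

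From 2i ESC to d1 EpiLC, the first day out of naive culture, *Jarid2* rose 2.44-fold (2.22 to 2.68) and *Aebp2* 1.73-fold (1.42 to 2.12), while *Eed* fell to 0.662 of its level (0.614 to 0.714). *Phf19* was also past the fold at 2.39, with an interval of 0.825 to 8.40. With thinned cells *Eed* was just within the fold (0.688). These are 3 of 10 genes higher and 1 lower, where 30.8% and 17.6% of all genes were. Between d1 and d2 EpiLC, *Jarid2* (0.513), *Mtf2* (0.502) and *Eed* (0.651) fell and *Phf19* stood at 0.460 with an interval of 0.159 to 1.199, so that 4 genes were past the fold downwards and 0 upwards, against 17.4% and 27.5% of all genes. *Ezh1* (1.39) was past the fold upwards with equal weight of cells (1.58), with the 5% deepest cells left out (1.55) and with cells thinned to the same depth (1.61), as was *Ring1* when thinned (1.66). The median ratio of the 10 genes was 0.774 at this step and that of all genes 1.09. Between d2 and d3 EpiLC only *Eed* (0.612) and *Phf19* (2.04, interval 0.812 to 5.77) were past the fold, against 17.3% of all genes lower and 17.1% higher, and with thinned cells *Phf19* was within it (1.27) and *Aebp2* (1.54) and *Ring1* (0.663) past it.

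Over the whole step from 2i ESC to d2 EpiLC, the stage that is competent for the germline, *Eed* fell to 0.431 (0.396 to 0.470) and *Mtf2* to 0.596 (0.554 to 0.641), and *Ring1* rose 1.69-fold (1.29 to 2.23) and *Ezh1* 1.53-fold (1.03 to 2.31). Of all genes 36.1% were higher and 14.3% lower. The median log2 ratio of all genes with at least 100 UMIs was 0.25 here, and with median-of-ratios size factors *Ring1* and *Ezh1* were no longer past the fold, *Suz12* was, and the split became 0 higher and 3 lower. Between d2 EpiLC and EpiSC, which have lost most of that competence, *Mtf2* fell to 0.620 (0.569 to 0.675) and *Ezh1* to 0.541 (0.368 to 0.788) and 0 genes rose, against 17.1% of all genes lower and 25.6% higher. With thinned cells *Mtf2* was just within the fold (0.686). *Ezh2* (1.07), *Jarid2* (0.922), *Suz12* (0.792) and *Eed* (0.765) were within the fold.

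Between d2 EpiLC and d2 EB, *Ring1* rose 1.53-fold (1.27 to 1.84) and *Phf19* 4.46-fold (1.98 to 11.8), from 7 to 41 UMIs, against 29.4% of all genes higher, and 0 of the 10 genes were lower, against 23.6%. *Ezh2*, *Eed*, *Suz12*, *Jarid2* and *Mtf2* had ratios between 0.727 and 0.820, all with intervals below 1. *Ring1* was within the fold with size factors (1.496) and with thinned cells (1.26), and *Suz12* past it when thinned (0.656). Between d2 and d4 EB only *Phf19* was past the fold, at 1.64 (1.05 to 2.57), where 26.2% of all genes were higher and 12.1% lower, and this value was 0.971 when cells were thinned to the same depth.

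From 2i ESC to S+L ESC *Jarid2* rose 2.08-fold (1.88 to 2.29), *Ezh1* 1.93-fold (1.31 to 2.90), *Aebp2* 1.53-fold (1.25 to 1.89) and *Phf19* 3.81-fold (1.41 to 12.9), of which *Aebp2* was within the fold with size factors (1.41). This is 4 of 10 genes against 27.4% of all genes, and 0 were lower against 11.4%. *Ezh2* (1.44) and *Mtf2* (1.36) were higher by less than the fold, and *Eed* (0.802) and *Suz12* (0.756) were lower by less than it. Naive markers summed to 1653 CPM in 2i ESC and 1597 in S+L ESC.

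In the EB, the 135 cells that the study lists as PGCLC (91 in d2 EB and 44 in d4 EB) were compared with the other 770 cells. The list is a cluster drawn on the transcriptomes of these same cells and named for PGC markers, so the ratios are a description. *Jarid2* was counted at 141 CPM [130-153] in listed PGCLC and 58.0 [54.7-61.4] in the other cells, and *Mtf2* at 185 [171.5-198] and 76.9 [73.2-80.9]. *Suz12* and *Eed* followed at a smaller size, *Suz12* at 67.7 [59.9-76.3] and 39.4 [36.7-42.3] and *Eed* at 79.5 [71.0-88.7] and 48.9 [45.9-52.0]. *Ezh2*, the methyltransferase itself, was level at 103 [92.9-113] and 103 [98.7-108].

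With *Phf19* at 2.00-fold (1.19 to 3.26), 5 of the 10 genes were higher past 1.5-fold, where 15.2% of all genes were, and 0 were lower, where 33.8% were. The ratios were 2.44 for *Jarid2* (2.20 to 2.70), 2.40 for *Mtf2* (2.20 to 2.62), 1.72 for *Suz12* (1.49 to 1.97) and 1.63 for *Eed* (1.43 to 1.85). *Ezh2* had a ratio of 0.995 (0.893 to 1.11), *Ezh1* 1.04, *Aebp2* 1.11, *Ring1* 0.867 and *Rnf2* 0.848 (0.704 to 1.02). Thus *Eed*, *Suz12* and 3 of the 4 accessory genes were higher, and the methyltransferase and RING genes were within the fold. The median of the 10 ratios was 1.37 against 0.847 for all genes. *Rbbp4* and *Rbbp7*, which encode PRC2 subunits outside the 10 genes, stood the other way. Their ratios were 0.758 (0.686 to 0.8365) and 0.530 (0.485 to 0.5785). *Phf19* rested on 24 and 61 UMIs, and without the 130 other EB cells that held UMIs of 3 or more extraembryonic ectoderm markers its ratio was 8.49.

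For *Mtf2*, *Jarid2*, *Suz12* and *Eed* the ratio was above 1 at both days and larger at d4, while *Phf19* had 3.13 at d2 and 1.28 at d4 (0.442 to 3.05). *Mtf2* stood at 158 CPM [144-173] in listed PGCLC and 76.1 [71.1-81.2] in other cells at d2, and at 259 [229.1-291.5] and 78.1 [72.3-84.3] at d4. *Jarid2* stood at 114 [102-127] and 56.7 at d2, and at 217 [190-247] and 59.8 at d4. *Suz12* stood at 56.6 [48.3-65.9] and 39.1 at d2, and at 98.6 [80.6-119.5] and 39.9 at d4. For *Mtf2*, *Jarid2* and *Suz12* the other EB cells had nearly the same level at both days. The listed PGCLC were higher at d4 for these genes, with intervals that did not overlap those of d2. *Eed* stood at 74.7 [65.1-85.2] in listed PGCLC at d2 and 92.9 [75.4-113] at d4, with overlapping intervals. At d2 *Mtf2* (2.08), *Jarid2* (2.01), *Eed* (1.54) and *Phf19* were past the fold, against 14.9% of all genes higher and 25.7% lower, and *Suz12* had a ratio of 1.45. At d4 *Jarid2* (3.63), *Mtf2* (3.31), *Suz12* (2.47), *Eed* (1.89) and *Ezh1* (1.60, interval 0.832 to 2.86) were higher and *Rnf2* (0.655, interval 0.442 to 0.940) was lower, against 16.2% and 47.6% of all genes.

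**Figure D2:**
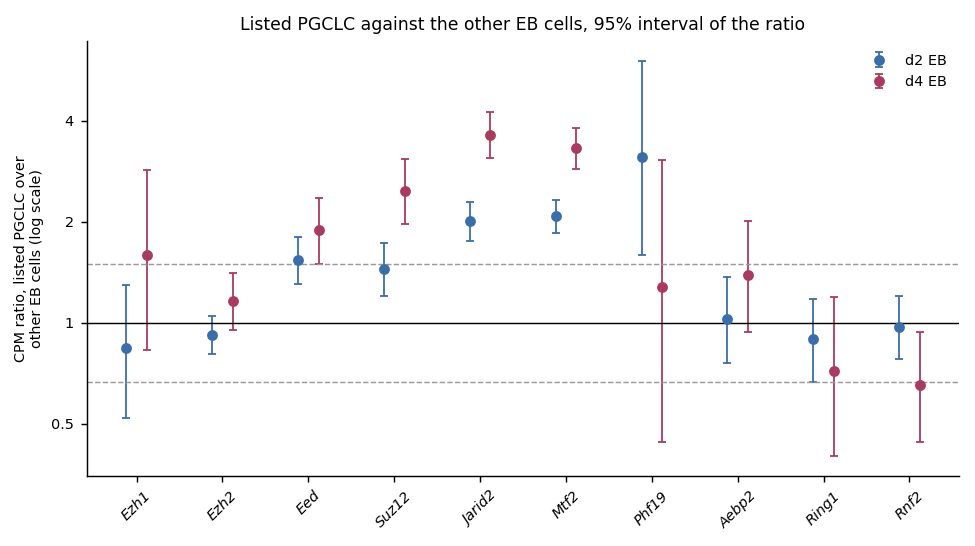
Ratio of CPM in listed PGCLC to that in the other EB cells (y axis, log scale) for the 10 genes in d2 EB (blue) and d4 EB (red), with exact conditional 95% intervals as bars, a line at 1 and dashed lines at 1.5-fold. *Jarid2* and *Mtf2* stand highest at d4 (3.63 and 3.31) and *Ezh2* lies near 1 at both days.

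The median log2 ratio of genes with at least 100 UMIs was -0.13 at d2 and -0.48 at d4, so relative to the median gene the ratios at d4 are larger. With size factors 7 genes were higher at d4 and 0 lower, and *Rnf2* was within the fold. *Tmed5*, which overlaps the 3′ end of *Mtf2*, stood the other way, at 0.524 in listed PGCLC (0.394 to 0.686), and *Trmt1l*, which overlaps *Rnf2*, at 0.961.

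Naive pluripotency markers also differed between these cells. The 8 markers summed to 826 CPM in listed PGCLC and 287.5 in the other cells (665.5 and 264 at d2, 1271.5 and 320 at d4), and extraembryonic mesoderm markers summed to 96.0 and 994 CPM, with *Postn* at 0 in listed PGCLC. S phase genes summed to 1222 and 1322 CPM, and G2 and M phase genes to 1885 and 1534. The 6 PGC markers, some of which the study cites in naming the cluster, summed to 442 and 46.8 CPM. To see *Mtf2* and *Jarid2* beside naive markers, the other EB cells were divided by how many naive markers had a UMI after thinning to 15374 UMIs, a division chosen after the data were seen. Thinning set only the classes, and the levels are from all UMIs of the cells kept. At d2, where listed PGCLC had a median of 3 such markers, *Mtf2* stood at 158 CPM in them. It stood at 74.3 [67.7-81.2] in the 243 other cells with 2 or 3 markers, whose median was 2. In the 10 other cells with 4 or more it stood at 151 [110-201]. The listed PGCLC were not divided, so the classes are not matched to them. At d4, where listed PGCLC had a median of 4, *Mtf2* stood at 258 in them and at 63.9 [38.5-99.7] in the 10 other cells with 4 or more. At d2 *Jarid2* stood at 114 in listed PGCLC and at 57.8 [52.1-64.0] in the other cells with 2 or 3 markers. In the 10 other d2 cells with 4 or more it stood at 118 [82.6-163], near the level of listed PGCLC. At d4 it stood at 210 [182-241] in listed PGCLC and at 90.8 [59.8-132] in the 10 other cells with 4 or more. The other cells with at least 4 markers were 10 at each day, and the part of naive identity in these differences was not tested further.

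Of 36 other Polycomb genes (other PRC2 subunits, PRC1 subunits, demethylases of lysine 27 and H2A deubiquitinases), 6 were higher in listed PGCLC and 14 lower past the fold, where 15.2% and 33.8% of all genes were, with a median ratio of 0.775 against 0.847 for all genes. *Cbx7*, whose chromodomain protein is the main CBX of ESC, stood at 46.1 CPM against 9.43 (4.90-fold, 3.98 to 6.03), and *Cbx8*, with the largest fold, at 0.501 against 5.48, on 2 and 111 UMIs (0.0916, 0.0110 to 0.339). *Phc1*, a polyhomeotic subunit of canonical PRC1, was 3.13-fold higher (2.72 to 3.61). *Yaf2*, a subunit of variant PRC1, was lower at 0.244 (0.198 to 0.298), as was *Bmi1*, at 0.355 (0.180 to 0.636). *Asxl3*, a partner of the H2A deubiquitinase BAP1, was lower at 0.188, on 2 and 54 UMIs.

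From 2i ESC to d2 EpiLC 12 of 35 tested of these genes rose and 3 fell, against 36.1% and 14.3% of all genes, and those with the largest folds were *Scml2* (1 UMI in 2i ESC and 11 in d2 EpiLC, ratio 8.63, interval 1.25 to 372), *Yaf2* (6.46), *Phf1* (0.262), *Cbx2* (3.34), *Bcor* (2.62) and *Kdm2b* (2.15). From d2 EpiLC to EpiSC 10 of 35 rose and 5 fell, against 25.6% and 17.1%, with the largest folds for *Phc2* (5.51), *Phf1* (4.26), *Asxl3* (3.34), *Scml2* (0.318, on 11 and 4 UMIs), *Pcgf1* (0.352) and *Yaf2* (2.73). From d2 EpiLC to d2 EB 14 of 36 rose and 7 fell, against 29.4% and 23.6%, with the largest folds for *Cbx8* (1 and 37 UMIs, ratio 28.2, interval 4.75 to 1143), *Phc2* (5.54), *Phf1* (5.14), *Pcgf5* (4.49), *Cbx6* (0.225) and *Phc1* (0.250). Hence *Phc1* fell and *Phc2* rose when EpiLC were aggregated, and the listed PGCLC stood on the other side of the remaining EB cells for both, with *Phc2* at 0.384 (0.2997 to 0.485).

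In the R1 d4 EB, the same accessory genes differed between dCD and WT. *Mtf2* was counted at 154 CPM [148-159] in WT and 288 [281-295] in dCD, *Jarid2* at 113 [108-118] and 195 [189-200.4], and *Phf19* at 1.99 [1.43-2.70] and 4.54 [3.71-5.51]. *Suz12* stood at 122 [117-127] and 153 [148-158], *Aebp2* at 56.0 and 66.3, *Eed* at 73.7 [70.1-77.5] and 82.9 [79.2-86.7] and *Ezh2* at 216 [210-222.5] and 234 [228-240.5]. *Ezh1*, at 11.3 CPM in both, and *Ring1*, at 13.8 and 14.2, had overlapping intervals, and *Rnf2* stood at 57.1 [53.9-60.5] in WT and 50.9 [48.0-53.9] in dCD.

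The ratio of dCD to WT was 1.87 for *Mtf2* (1.79 to 1.95), 1.72 for *Jarid2* (1.64 to 1.81) and 2.28 for *Phf19* (1.57 to 3.36), so 3 of the 10 genes were higher past 1.5-fold against 22.6% of all genes, and 0 were lower against 14.7%. *Suz12* (1.25), *Aebp2* (1.18), *Eed* (1.12) and *Ezh2* (1.08) were higher by less than the fold with intervals above 1, and *Rnf2* (0.890) was lower with an interval below 1. The median ratio of the 10 genes was 1.15 and that of all genes 1.03. *Tmed5* stood at 0.588 (0.540 to 0.641), opposite to *Mtf2*, and *Trmt1l* at 1.07.

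The 2 libraries also differed in their cells. Naive markers summed to 536 CPM in WT and 797.6 in dCD, extraembryonic mesoderm markers to 1422 and 403, extraembryonic ectoderm markers to 147 and 336.5, PGC markers to 108 and 104, S phase genes to 1953 and 2227, and G2 and M phase genes to 2815 and 3778. The PGC marker sums do not count PGCLC, and in the study the PGCLC cluster of these EB was made up mostly of WT cells. Cells were classed by the naive markers that had a UMI after thinning to 6831 UMIs, and the levels of each class are from all UMIs of its cells. Cells with 4 or more such markers made up 8.93% of 1366 WT cells and 21.0% of 1529 dCD cells. In WT, *Mtf2* stood at 117 CPM in cells with 0 or 1 naive marker and 361 [336-388] in cells with 4 or more, *Jarid2* at 72.2 and 331 [307-357], *Suz12* at 90.9 and 298 [275-322] and *Eed* at 55.0 and 204 [185-224]. *Aebp2* stood at 48.7 and 99.8, whereas *Ezh2* had nearly the same level in both (214 and 238) and *Rnf2* stood at 59.3 and 42.6.

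The difference between dCD and WT was therefore computed within cells that had the same number of naive markers, a division chosen after the data were seen. For *Mtf2* the ratio was 1.64 (1.54 to 1.75) in cells with 0 or 1 marker, 1.64 (1.495 to 1.80) with 2 or 3 and 1.35 (1.25 to 1.47) with 4 or more, above 1 in each class. *Jarid2* had 1.94 (1.79 to 2.097), 1.37 (1.24 to 1.52) and 0.901 (0.824 to 0.986), and *Suz12* 1.51 (1.40 to 1.63), 1.05 and 0.639 (0.578 to 0.707), so both were higher in dCD among cells with few naive markers and lower among cells with many. *Eed* had 1.17, 1.22 and 0.588 (0.519 to 0.666). *Ezh2* stayed between 0.987 and 1.13 in the 3 classes. The study found far fewer dCD than WT cells in its PGCLC cluster of these EB. Cells of the same class may thus differ in type between the libraries, which was not tested. Without the 255 WT and 632 dCD cells with 3 or more naive markers the ratio was 1.59 for *Mtf2*, 1.95 for *Jarid2* and 1.42 for *Suz12*, and the 3 genes past the fold were again *Mtf2*, *Jarid2* and *Phf19*. Without cells with UMIs of 2 or more PGC markers *Jarid2* had a ratio of 2.15 and *Suz12* of 1.46.

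**Figure D3:**
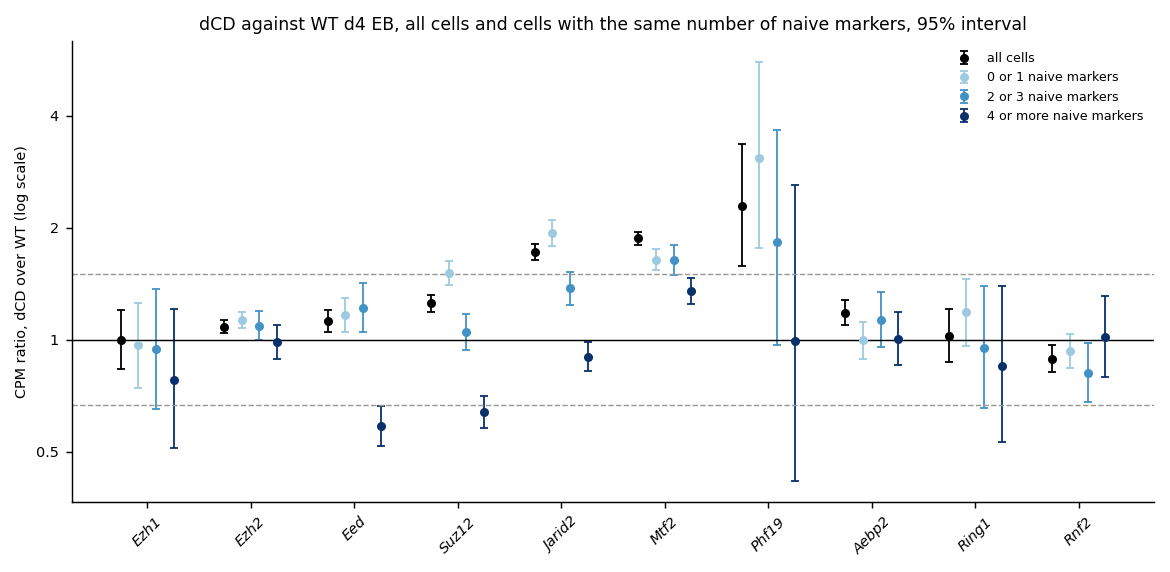
Ratio of CPM in dCD to that in WT d4 EB (y axis, log scale) for the 10 genes, in all cells (black) and in cells with UMIs of 0 or 1, 2 or 3, and 4 or more of 8 naive markers after thinning (light to dark blue), all from UMIs at full depth, with exact conditional 95% intervals and dashed lines at 1.5-fold. *Mtf2* lies above 1 in each class, while *Eed* and *Suz12* fall to 0.588 and 0.639 in cells with 4 or more.

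Of the 36 other Polycomb genes 7 were higher and 6 lower in dCD past the fold, where 22.6% and 14.7% of all genes were. *Cbx7* had the largest ratio, at 13.99 CPM in WT and 57.7 in dCD (4.12-fold, 3.63 to 4.70). *Epop*, an accessory subunit of the MTF2 and PHF19 form of PRC2, stood at 32.5 and 81.3 CPM (2.50-fold, 2.29 to 2.74), and *Scml2* at 1.55 and 5.81 (3.74-fold, 2.53 to 5.68). *Asxl3* (0.398) and *Pcgf5*, a variant PRC1 subunit (0.445, 0.414 to 0.478), were among the lower ones. *Phc1* was 1.81-fold higher (1.69 to 1.95).

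**Figure D4:**
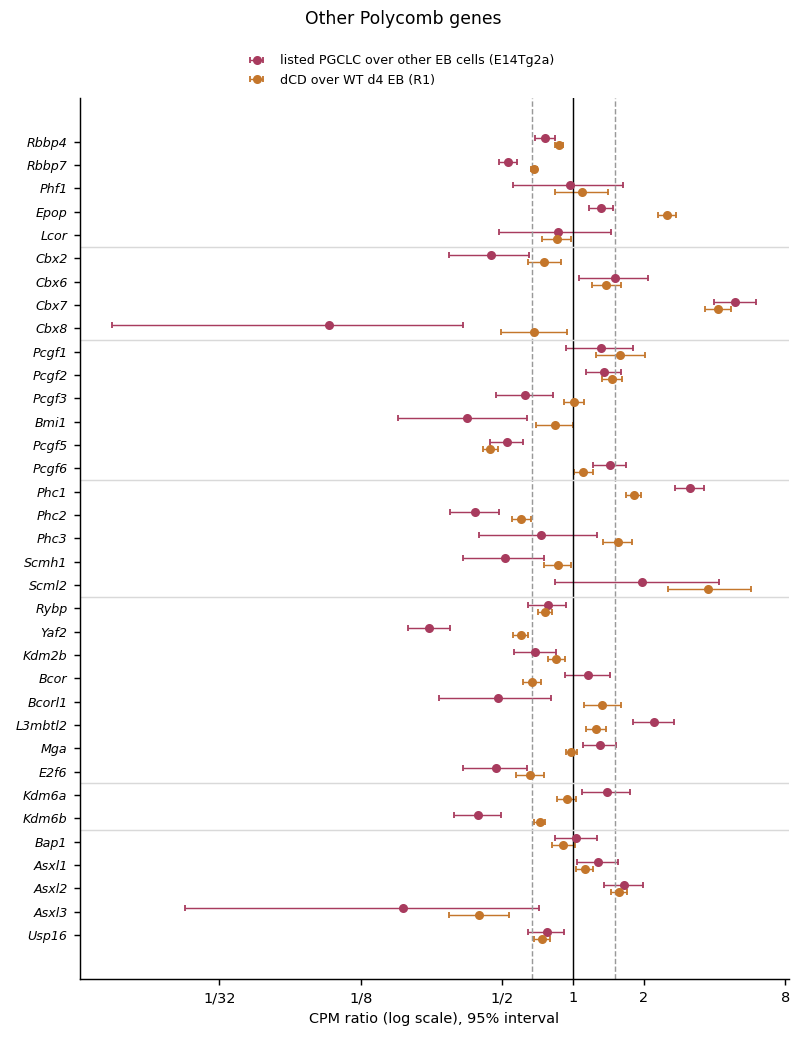
Ratio of CPM (x axis, log scale) for 35 of the 36 other Polycomb genes in listed PGCLC over other EB cells (red) and in dCD over WT d4 EB (orange), with exact conditional 95% intervals and dashed lines at 1.5-fold. Grey lines part, from the top, PRC2 subunits, CBX, PCGF, PHC and SCM, variant PRC1, demethylases and deubiquitinases, and *Cbx7* stands highest in both comparisons (4.90 and 4.12).

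Within each library, cells were ranked by the share of their UMIs that came from 40 cell cycle genes (20 of S phase, 20 of G2 and M phase, with none of the 10 Polycomb genes among them), and the tertile of cells with the highest share was compared with that of the lowest. The tertiles are ranks within a library, with a median share of 0.387% in the low tertile of d1 EpiLC and 0.404% in the high tertile of d2 EB, and do not part cycling from other cells. *Ezh2* stood at 90.6 CPM in the low and 160 in the high tertile of 2i ESC and at 145 and 223 in S+L ESC. In EpiLC the pair of values was 107 and 184 at d1, 115 and 140 at d2 and 89.3 and 124 at d3, in EpiSC 116.5 and 172, and in EB 55.2 and 133 at d2 and 59.9 and 120 at d4. It was thus higher in the high tertile in 8 of 8 libraries, by 1.22-fold (1.07 to 1.39) in d2 EpiLC to 2.42-fold (2.09 to 2.81) in d2 EB, with a median of 1.62. The ratio was 1.88 (1.74 to 2.04) in WT and 1.75 (1.62 to 1.89) in dCD.

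*Ezh2* was the only 1 of the 10 genes past 1.2-fold in all 8 libraries, as were 1.19% of the 8860 genes with at least 10 UMIs in each, and 0.0113% were lower in all 8. In d2 EpiLC this rested on a value near the fold, and with cells in 2 equal groups in place of tertiles the ratio there was 1.199, so that 7 libraries were past the fold. *Ezh2* was above 1 in all 8 libraries with S phase genes alone, with G2 and M phase genes alone and with 2 equal groups, and its lowest ratio was in d2 EpiLC each time (1.12 to 1.199). *Eed* was above 1 in 8 libraries and past 1.2-fold in 7, and *Mtf2* above 1 in 7 and past it in 6. *Ring1* was past it in 4, *Suz12* and *Rnf2* in 3 and *Jarid2*, *Aebp2* and *Ezh1* in 2, and *Ezh1* and *Aebp2* were past it downwards in 1. *Phf19* had too few UMIs to be ranked.

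**Figure D5:**
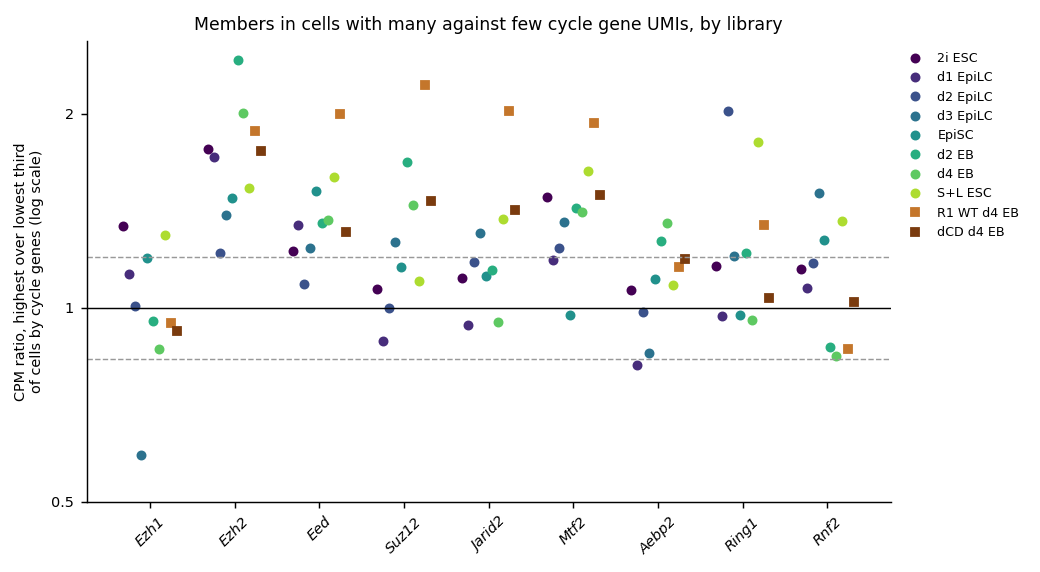
Ratio of CPM in the tertile of cells with the most to the tertile with the fewest cell cycle UMIs (y axis, log scale) for 9 genes, 1 point per library, circles for E14Tg2a and squares for R1, with dashed lines at 1.2-fold. *Ezh2* lies above 1.2 in each of the 10 libraries, from 1.22 to 2.42, and *Phf19* is left out for its low counts.

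The tertiles differed in other ways too. Median UMIs per cell were 22116 in the low and 27736 in the high tertile of d2 EB, 18642 and 25862.5 in d4 EB, and 40879 and 33253 in d1 EpiLC, so the deeper tertile was not the same one throughout. In WT R1 EB *Suz12* (2.21), *Jarid2* (2.02), *Eed* (2.00) and *Mtf2* (1.93) had ratios as high as *Ezh2*, and there the low tertile held 1980 CPM of extraembryonic mesoderm markers against 1150.5 in the high tertile, and 346 CPM of naive markers against 659. In dCD the same 4 genes had ratios between 1.31 and 1.497. The part of cell composition in these values was not tested.

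The spread between cells is given for *Mtf2*, *Jarid2* and *Ezh2*. In cells thinned to the same depth, the variance of *Mtf2* UMIs divided by their mean, which is 1 for counting alone, was 1.29 in 2i ESC, 1.18, 1.03 and 1.68 in d1, d2 and d3 EpiLC, 1.09 in EpiSC, 1.39 and 1.83 in d2 and d4 EB and 1.86 in S+L ESC. *Jarid2* had 1.03 in 2i ESC, 1.22, 1.14 and 1.23 in d1, d2 and d3 EpiLC, 1.28 in EpiSC, 1.44 and 1.79 in d2 and d4 EB and 1.69 in S+L ESC. The median over all genes with a mean of at least 0.5 UMIs per cell lay between 1.09 in d2 EpiLC and 1.23 in d4 EB. Both genes stood above the median of the same library in d1 and d3 EpiLC, in d2 and d4 EB and in S+L ESC, where the median was 1.13. *Mtf2* in d2 EpiLC and EpiSC and *Jarid2* in 2i ESC were below it. The genes behind this median were not matched for level. In S+L ESC *Mtf2* had a mean of 4.03 UMIs per cell and *Jarid2* 2.01, and the part of level was not tested. *Ezh2* lay between 1.09 and 1.46 over the 8 libraries. *Phf19* reached 1.89 in d4 EB on few UMIs. At this depth *Mtf2* had a UMI in 97.4% of d1 EpiLC cells, 94.2% of S+L ESC and 68.7% of EpiSC, and *Ezh2* in 71.3% of d4 EB cells to 92.5% of S+L ESC.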

How the data were processed

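The authors deposited tables of UMI counts, genes by cells and not scaled once aggregated, for 8 E14Tg2a libraries (Cell Ranger on GRCm38, brought to a common number of mapped reads per cell) and for 2 R1 libraries on mm10, from which cells with fewer than 2000 genes had been removed. The gene annotation is not given in the sources used here. Barcode suffixes were paired with stages, and listed PGCLC taken, from the study's supplement. Symbols were found for 27645 E14Tg2a identifiers, and 0 columns were left unused.

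UMIs were summed per group and scaled to 1000000. CPM have exact Poisson and ratios exact conditional intervals at 95%, for counting error only. No test was run, since each condition has 1 library. Calls used 1.5-fold and at least 10 UMIs over both groups. Cells were thinned to 15374 UMIs in E14Tg2a (2666 of 2782 cells kept) and 6831 in R1 (2895 of 3115 kept). No doublet caller was run, and the 5% of cells with most UMIs were left out as an alternative. Other alternatives changed the scaling, the weight of cells, the depth, the fold, the minimum of UMIs and the cells compared. Total UMIs per library, from 8757170 to 22887974, limit the precision.

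The 10 genes and all lists were chosen with earlier results of these data known. Other Polycomb genes were named where past the fold and, if more than 6, for the 6 largest folds, for 5 of the 12 comparisons; *Phc1* and *Phc2* were also named after their values were seen. Some genes that these rules name are not reported here. Python 3.11.15, numpy 2.4.6, scipy 1.17.1, pandas 2.3.3 and matplotlib 3.10.9 were used, and the computations were tested on simulated data.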

Additional observations from a re-analysis of the deposited data

How the results depend on the processing

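No paired analysis was possible because each condition has 1 library, and no library could be left out. The number of the 10 genes past the fold was 5 for listed PGCLC in every alternative except a minimum of 100 UMIs (4), and 3 for dCD in every alternative except a fold of 1.2 (4). In the d4 EB the 5 higher and 1 lower became 7 and 0 with size factors and 7 and 2 with thinned cells or equal weight of cells. With a fold of 1.2 the count rose from 4 to 7 from d1 to d2 EpiLC and from 2i ESC to d2 EpiLC, from 2 to 7 from d2 to d3 EpiLC and from d2 EpiLC to EpiSC, from 2 to 9 from d2 EpiLC to d2 EB, from 1 to 2 from d2 to d4 EB and from 4 to 8 from 2i to S+L ESC. From d1 to d2 EpiLC the 0 higher and 4 lower became 1 and 4 with equal weight of cells or the deepest cells left out and 2 and 4 with thinned cells. Thinned cells gave 2 in place of 4 from 2i ESC to d1 EpiLC and 1 in place of 2 from d2 EpiLC to EpiSC. A minimum of 100 UMIs gave 1 in place of 2 from d2 to d3 EpiLC and from d2 EpiLC to d2 EB, as did size factors for the latter. From d2 to d4 EB the count of 1, *Phf19*, became 0 with size factors, equal weight of cells, thinned cells, the deepest cells left out or a minimum of 100 UMIs, and thinned cells turned its ratio to 0.971. The count of genes past 1.2-fold over the cell cycle in 8 libraries, 1 for *Ezh2*, became 0 with 2 equal groups of cells, S phase genes alone or G2 and M phase genes alone. The causes of these changes were not tested. Of 536 alternative values of single genes, 481 moved by less than counting error, 54 by more and 1 reversed.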
